A study of Mus musculus with 2 samples.

Results

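The Bcl2 family decides at the outer membrane of the mitochondrion whether a cell dies by apoptosis. The genes described here are 9 of the 32285 genes counted, chosen by symbol: the anti-apoptotic Bcl2, Bcl2l1 (Bcl-xL) and Mcl1, the effectors Bax and Bak1, and the BH3-only genes Bcl2l11 (Bim), Bad, Bid and Pmaip1 (Noxa). All 9 were found in the matrix and had at least 100 UMIs over the kept cells.

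The effectors Bax and Bak1 form pores that release cytochrome c, which starts the caspases. The anti-apoptotic proteins bind the effectors and hold them back. BH3-only proteins carry the signals for death, such as loss of growth factors (Bcl2l11, Bad), cleavage by caspase 8 (Bid) or p53 (Pmaip1), and Pmaip1 binds Mcl1. In skeletal muscle, some myoblasts are known to die by apoptosis as differentiation begins, and those that leave the cycle become resistant.

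Mouse embryos at E14 carried Myf5-Cre, which recombines in muscle precursors and in other descendants of Myf5-expressing cells, and a tdT reporter, and tdTomato-positive cells of trunk and limbs were sorted and sequenced with 10x Genomics 3′ chemistry. By the titles of the samples, 1 library is of SRSF2f/f/Myf5-Cre/tdT embryos, in which both Srsf2 alleles are floxed, and 1 is of SRSF2f/w/Myf5-Cre/tdT embryos with 1 floxed allele and the same Cre and reporter. The number of embryos in a library was not given in the sources used here. The study asked what loss of the splicing factor SRSF2 does to these cells.

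The titles stand in doubt. Srsf2 had 219 CPM (UMIs per 1000000 UMIs of the same cells) in the library labelled f/f and 153 CPM in the library labelled f/w, a log2 ratio of -0.52 (95% interval -0.54 to -0.49), and it was lower in the library labelled f/w in 10 of 10 cell classes. Cells with muscle markers made up 17.9% of the first library and 1.06% of the second, and a supplementary quality summary of the study pairs the genotypes with the libraries the other way round. The study itself reports a far smaller muscle share and a larger endothelial share in the mutant than in the control. Endo-like (endothelial) cells were 3.13% of the library labelled f/f and 9.35% of the library labelled f/w. All of these go against the titles. The study's own cell numbers run the way of the titles, since it kept more mutant than control cells and the library labelled f/f is the larger. The part of Srsf2 that Cre removes was not checked against the counted 3′ ends. Libraries are therefore called labelled f/f and labelled f/w throughout, every ratio between them is the log2 of labelled f/w over labelled f/f, and each direction turns if genotypes are assigned the other way.

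Depth was alike in both libraries. Of 15268 and 12498 barcodes, 12523 and 10345 were kept, with a median of 10751 and 9480 UMIs per cell in the libraries labelled f/f and f/w, and 74 barcode sequences occurred in both. With 1 library per genotype there is no replicate and no test, so intervals cover counting error only. A member is said to pass the limit at 1.5-fold either way (0.58 on the log2 scale) with at least 100 UMIs over both sides. Cells were put in 14 classes by fixed lists of 8 markers, at least 3 of them with a UMI, and 12 classes had at least 100 cells. Every class had at least 2 of its own markers among its 10 leading genes, and more than of any other class. The class rule itself favours this, so it is no independent check. Sch-like cells were closest to another list, with 4 of their own and 3 NPC-like (neural progenitor) markers. Since 3′ counting takes 1 UMI per captured molecule, levels were not divided by transcript length, and genes are compared with each other only as UMIs.

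Mcl1, a short-lived protein whose loss exposes many cell types to death, was the most abundant member. It was counted at 313 CPM (310 to 316) in the library labelled f/f and 430 CPM (426 to 434) in the library labelled f/w. Bax followed with 124 and 145 CPM. Every other member stayed under 55 CPM in both libraries.

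Among the other anti-apoptotic genes, Bcl2 had 23.8 CPM in the library labelled f/f and 25.3 CPM in the library labelled f/w, and Bcl2l1 had 15.6 and 20.8 CPM. The effector Bak1 stood far below Bax, with 10.5 and 11.2 CPM. Of the BH3-only genes, Bcl2l11 had 35.5 and 54.3 CPM, Bad 41.9 and 40.7 CPM, Pmaip1 12.6 and 11.3 CPM, and Bid only 1.34 and 1.81 CPM. Bid therefore had too few UMIs for a ratio within any class.

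The members lie apart in the genome (GRCm38, GENCODE genes). Bcl2 spans chr1:106538178-106714274 on the minus strand, Bcl2l1 chr2:152780668-152831728 on the minus strand and Mcl1 chr3:95658788-95663176 on the plus strand. Bax lies at chr7:45461697-45466898 and Bak1 at chr17:27019810-27029009, both on the minus strand. Bcl2l11 lies at chr2:128126038-128162547, Bad at chr19:6941861-6951899 and Pmaip1 at chr18:66458533-66465565, all on the plus strand, and Bid at chr6:120891930-120916853 on the minus strand. Bcl2, Bak1, Bad and Bid each overlap 1 other counted gene on the opposite strand, and the other 5 members overlap none.

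Levels differed widely between cell classes. All 9 members differed by over 2-fold between their highest and lowest class, but so did 91.2% of the 10952 genes with at least 1000 UMIs, so such a range is not particular to the family.

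**Figure D1:**
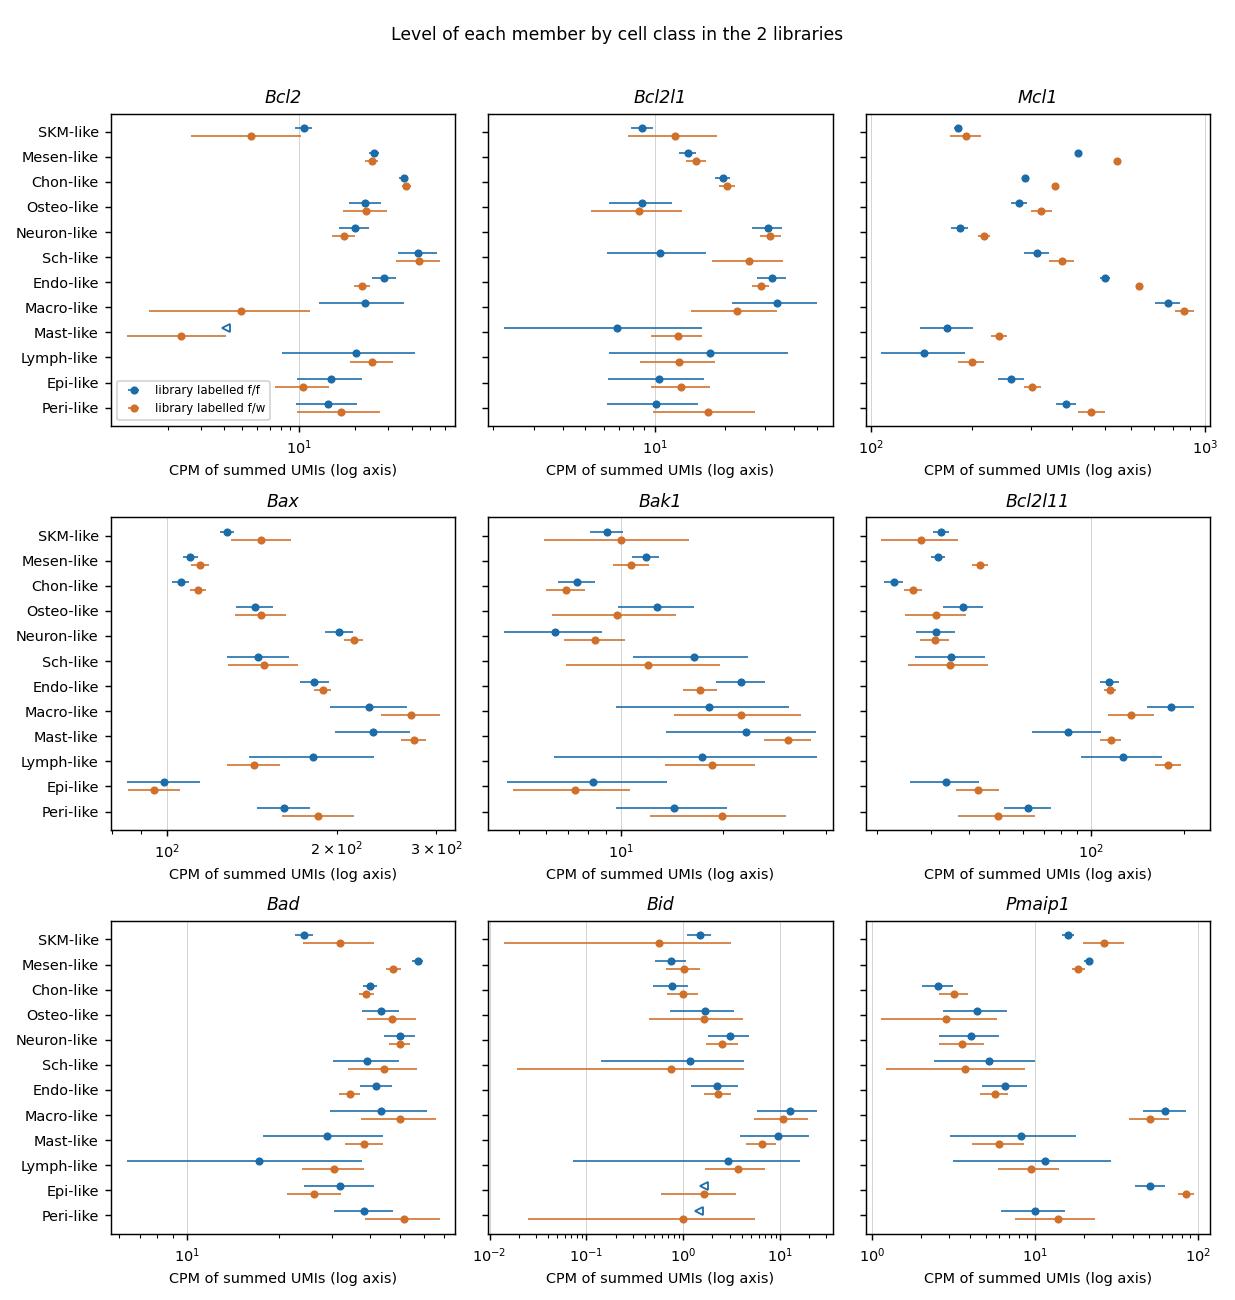
Level of each member (CPM of summed UMIs, log axis) in the 12 cell classes with at least 100 cells, with points for the library labelled f/f (blue) and the library labelled f/w (orange), bars for exact 95% Poisson intervals, and open triangles at the level of 3 UMIs where none was counted. Over both libraries, Mcl1 is highest in Macro-like and lowest in SKM-like cells, and Bcl2l11 is highest in Lymph-like, Macro-like, Endo-like and Mast-like cells.

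Mcl1 was highest in Macro-like cells, which carry macrophage markers, with 772 CPM in the library labelled f/f and 866 CPM in the library labelled f/w. Endo-like (endothelial) cells followed with 501 and 633 CPM, and Mesen-like (mesenchymal) cells with 417 and 543 CPM. SKM-like (skeletal muscle) cells had 182 CPM (177 to 186) and 192 CPM (172 to 214), and were lowest over both libraries summed. In the library labelled f/f, Lymph-like cells (144 CPM, 107 to 190) and Mast-like cells (169 CPM, 140 to 201) had lower values. Their intervals overlap that of SKM-like cells. Over both libraries the highest class had 4.54 times the level of the lowest. Lymph-like cells (193 CPM) and SKM-like cells (182 CPM) had overlapping intervals, so SKM-like cells cannot be set below them.

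Bcl2 had another order. It was highest in Sch-like (Schwann) cells, with 43.2 CPM in the library labelled f/f and 43.6 CPM in the library labelled f/w, and in Chon-like (cartilage) cells, with 36.1 and 37.4 CPM. SKM-like cells had 10.6 CPM in the library labelled f/f and 5.57 CPM in the library labelled f/w, the latter from 10 UMIs. Mast-like cells were lowest, with no UMI in 33 cells of the library labelled f/f and 12 UMIs in 287 cells of the other. Sch-like and Chon-like cells had overlapping intervals, and Chon-like cells stood above Mesen-like cells (24.9 CPM over both libraries).

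Bcl2l1 was highest in Neuron-like cells (30.6 and 31.5 CPM in the libraries labelled f/f and f/w) and Endo-like cells (32.0 and 28.6 CPM). It was lowest in Osteo-like (bone) cells (8.80 and 8.53 CPM) and SKM-like cells (8.80 and 12.3 CPM). Within Endo-like cells it was split by lymphatic identity. The 825 cells with at least 2 of the lymphatic markers Lyve1, Prox1, Ccl21a and Mmrn1 had 38.0 CPM and the other 534 had 15.4 CPM, a log2 ratio of 1.30 (1.03 to 1.57). The split was present in the library labelled f/f (45.3 against 18.0 CPM) and in the library labelled f/w (36.0 against 14.1 CPM). Bcl2l1 was the only 1 of 8 members with at least 100 UMIs to pass the limit there, beside 19.0% of all genes, and Bak1 came near it in the other direction (15.8 against 23.0 CPM, log2 -0.54, -0.81 to -0.26).

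Erythroid cells, which are known to depend on Bcl-xL, were few and are given as values only. The 56 Ery-like cells held 19 UMIs of Bcl2l1 and 13 of Mcl1, whereas all kept cells held 4925 and 100254. Bcl2 and Bcl2l11 had no UMI in them, which allows a level of up to 4.45 CPM (3 UMIs) each.

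Bax was highest in Mast-like cells (232 CPM in the library labelled f/f and 273 CPM in the library labelled f/w) and Macro-like cells (228 and 270 CPM), followed by Neuron-like cells (202 and 214 CPM). Epi-like (epidermal) cells were lowest, with 99.0 and 95.2 CPM. SKM-like cells had 128 and 147 CPM, in the lower part of the order but above Mesen-like and Chon-like cells. Bak1 was highest in Mast-like cells as well (23.3 and 30.9 CPM), and SKM-like cells had 9.06 and 10.0 CPM.

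Of the BH3-only genes, Bcl2l11 was high in Lymph-like, Macro-like, Endo-like and Mast-like cells. Lymph-like cells had 127 CPM in the library labelled f/f and 178 CPM in the library labelled f/w, Macro-like cells 182 and 135 CPM, Endo-like cells 115 and 115 CPM and Mast-like cells 83.7 and 116 CPM. The remaining 8 classes lay between 22.8 and 62.2 CPM in either library, with SKM-like cells at 32.4 and 27.9 CPM.

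Pmaip1 was highest in Epi-like cells (51.2 and 84.9 CPM in the libraries labelled f/f and f/w) and Macro-like cells (63.0 and 50.9 CPM). Mesen-like cells had 21.4 and 18.5 CPM and SKM-like cells 15.99 and 26.7 CPM. Chon-like cells were lowest, with 2.54 and 3.19 CPM, and over both libraries the range was 25.8-fold (21.6 to 30.9). That of Bcl2 was 21.1-fold (11.7 to 41.8), and the order of these ranges is not set. Bad was the most even member, from 53.6 CPM in Mesen-like to 24.6 CPM in SKM-like cells over both libraries. Bid reached 11.5 CPM in Macro-like and 6.86 CPM in Mast-like cells and stayed under 4 CPM elsewhere.

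Among genes with at least 1000 UMIs, those whose levels over the 12 classes were most like a member were Lamp2 (Pearson r = 0.930 on the log2(CPM + 1) scale) for Mcl1, Klhl6 (0.965) and Ptpn18 (0.964) for Bcl2l11, Cklf (0.9503) and Inpp5d (0.901) for Bak1, and Taldo1 (0.948) and Grb2 (0.943) for Bid. Bcl2 was most like Pmepa1 (0.923) and Spsb1 (0.917), Bax like Gab2 (0.922) and Mtss1 (0.914), Bcl2l1 like Ppp6c (0.912) and Mapk3 (0.894), and Bad like Lrpap1 (0.935) and Nagk (0.868). Pmaip1 had the weakest partners, Cep95 (0.813) and Mboat1 (0.809). The 12 points share 2 libraries and differ in depth, and these values are a description.

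The mix of members differed between classes as well. Over all kept cells, 62.6% of the 178704 UMIs of the members came from the anti-apoptotic genes, 22.2% from the effectors and 15.2% from the BH3-only genes. Mesen-like cells had the highest anti-apoptotic share (68.3%, exact binomial interval 67.9 to 68.7) and Mast-like cells the lowest (34.9%, 33.4 to 36.4). SKM-like cells had 48.7% (47.9 to 49.5), with 48.8% in the library labelled f/f and 46.3% in the library labelled f/w. Neuron-like cells had 45.6% (44.6 to 46.6) and the highest effector share but for Mast-like cells (38.8%). Lymph-like cells had the highest BH3-only share, 35.0%. Mcl1 gave 80.6% or more of the anti-apoptotic UMIs in each of the 12 classes. A share of transcripts is not a balance of proteins.

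**Figure D2:**
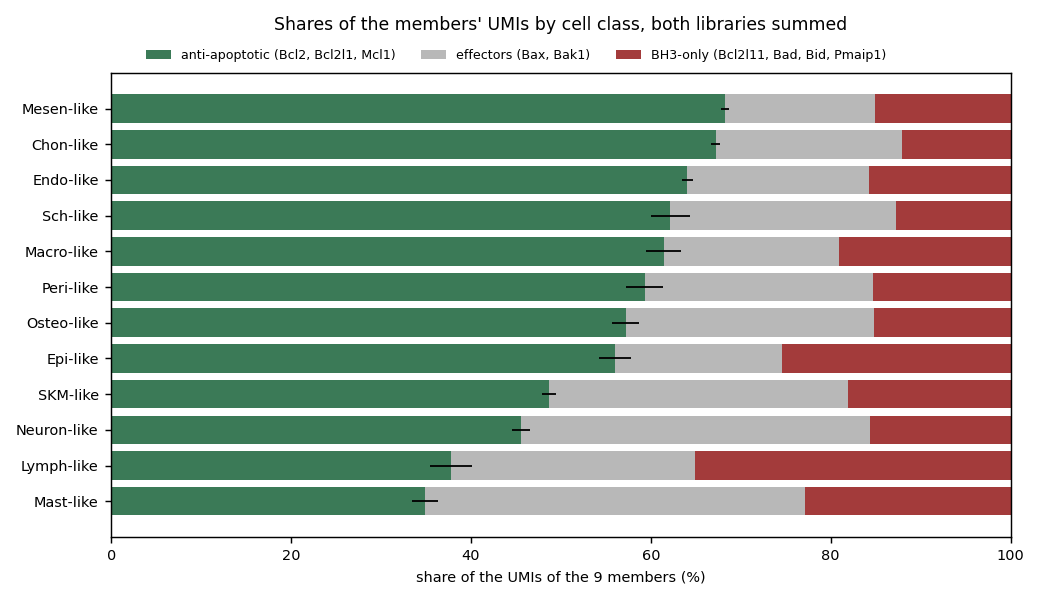
Share of the members' UMIs (%) from the anti-apoptotic genes (green, black lines for the exact 95% interval of this share), the effectors (grey) and the BH3-only genes (red) in the 12 classes, both libraries summed. The anti-apoptotic share falls from 68.3% in Mesen-like to 34.9% in Mast-like cells, with SKM-like cells at 48.7%.

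Other genes of the pathway, chosen here after their values were seen, also differed between classes. Among other anti-apoptotic members, Bcl2a1b reached 558 CPM in Macro-like cells and at most 14.0 CPM in the other classes, but Bcl2a1a, Bcl2a1b and Bcl2a1d are near-identical copies whose counts are uncertain. Among other BH3-only members, Bik had 42.8 CPM in Endo-like cells and at most 2.20 CPM elsewhere, Hrk 19.9 CPM in Neuron-like cells and at most 2.72 CPM elsewhere, and Bnip3, a hypoxia gene, was highest in Chon-like cells (63.2 CPM). Birc5 (survivin), which also serves in cell division, was highest in SKM-like cells (205 CPM), with Peri-like (pericyte) cells close (196 CPM).

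Within the muscle class, members differed between early and late cells. SKM-like cells with a Pax7 UMI and none of Myog were called the Pax7 state (progenitors), and those with at least 2 Myog UMIs and none of Pax7 the Myog state (differentiating cells). The library labelled f/f held 813 and 742 such cells, with a median of 14890 and 13272.5 UMIs, and the library labelled f/w 34 and 47. In the library labelled f/f, 6 of 8 members with at least 100 UMIs passed the limit, 5 lower and 1 higher in the Myog state, beside 37.7% of 9222 genes. The median of all genes was -0.19 on the log2 scale and that of the members -0.63. Relative to the median gene, a scaling added after the data were seen, 3 members passed: Bcl2, Mcl1 and Pmaip1.

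Bcl2 went from 15.0 CPM (12.9 to 17.3) in the Pax7 state to 4.81 CPM (3.58 to 6.32) in the Myog state of the library labelled f/f, a log2 ratio of -1.64 (-2.12 to -1.19) and of -1.45 relative to the median gene. In the library labelled f/w it had 4 and 3 UMIs (7.30 and 3.999 CPM), too few for a direction.

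Mcl1 went from 219 CPM (211 to 227) to 121 CPM (114 to 128) in the library labelled f/f, a log2 ratio of -0.86 (-0.95 to -0.76) and of -0.67 relative to the median gene. In the library labelled f/w it went from 225 CPM (187 to 268) to 151 CPM (124 to 181). That is a log2 ratio of -0.576 (-0.96 to -0.20), just inside the limit, where the median gene had -0.07. Mcl1 was thus lower in the Myog state in both libraries. The intervals of the states do not overlap in either.

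Pmaip1 moved the other way. It went from 9.31 CPM (7.71 to 11.1) in the Pax7 state to 24.3 CPM (21.4 to 27.5) in the Myog state of the library labelled f/f, a log2 ratio of 1.39 (1.07 to 1.71). In the library labelled f/w it went from 9.13 CPM (5 UMIs) to 46.7 CPM (35 UMIs), a log2 ratio of 2.35 (0.996 to 4.06). In the library labelled f/f, 323 SKM-like cells had a UMI of Myh3, an embryonic myosin of forming fibres, and none of Pax7. They had 26.4 CPM of Pmaip1, within the interval of the Myog state. The Myh3 cells overlap the Myog state and are not a separate group.

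Bcl2l1 (10.4 to 6.69 CPM), Bak1 (11.4 to 7.26 CPM) and Bad (28.4 to 18.6 CPM) were lower in the Myog state of the library labelled f/f, with log2 ratios of -0.64, -0.66 and -0.61, but stayed inside the limit relative to the median gene. Bcl2l11 had 34.7 and 27.4 CPM (log2 -0.34, -0.56 to -0.12), and Bid 23 and 5 UMIs. Bax had 129 and 125 CPM (log2 -0.04, -0.15 to 0.06), and 124 and 132 CPM in the library labelled f/w, so neither library shows a difference for it. Counting error alone puts the Bax difference of the library labelled f/f under 1.5-fold.

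**Figure D3:**
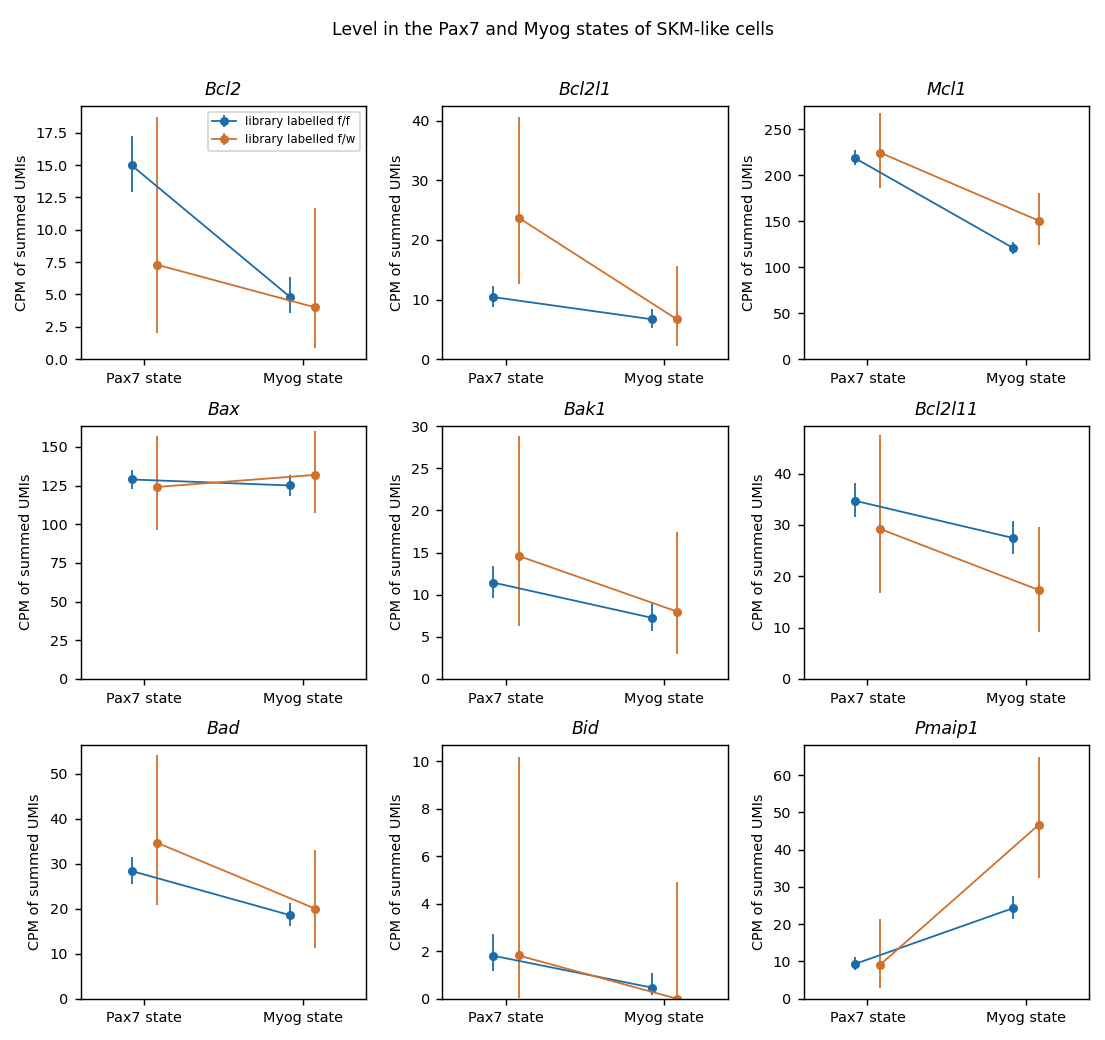
Level of each member (CPM of summed UMIs) in the Pax7 and Myog states of SKM-like cells, for the library labelled f/f (blue) and the library labelled f/w (orange), with exact 95% Poisson intervals. Mcl1 is lower and Pmaip1 higher in the Myog state in both libraries, and Bax is level.

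Bcl2 and Mcl1, the anti-apoptotic members furthest below their Pax7 level in Myog cells, are shown with the 250 bases before their RefSeq start site (GRCm38.p6, 5′ to 3′ on the gene's strand). Capitals mark E-boxes, CANNTG, the motif that Myod1 and Myog bind, which reads the same on both strands and of which CAGCTG is 1 form. Bcl2 is read at chr1:106714291-106714540 (minus) and Mcl1 at chr3:95658471-95658720 (plus).
Bcl2: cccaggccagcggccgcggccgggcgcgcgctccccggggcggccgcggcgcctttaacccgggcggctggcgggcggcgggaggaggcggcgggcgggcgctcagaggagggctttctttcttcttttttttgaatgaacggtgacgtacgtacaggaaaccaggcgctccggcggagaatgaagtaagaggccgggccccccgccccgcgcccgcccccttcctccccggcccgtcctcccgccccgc
Mcl1: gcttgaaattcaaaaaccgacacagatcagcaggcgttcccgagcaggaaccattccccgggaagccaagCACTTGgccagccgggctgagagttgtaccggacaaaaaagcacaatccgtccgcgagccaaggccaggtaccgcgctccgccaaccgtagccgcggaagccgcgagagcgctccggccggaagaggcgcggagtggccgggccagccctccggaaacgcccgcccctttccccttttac
The Mcl1 window holds 1 E-box and the Bcl2 window none. Of 12 windows found for 8 members, 7 hold CANNTG and none holds CAGCTG, beside 66.2% and 13.0% of all 32851 windows of this length. These are matches of letters and say nothing of binding.

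The rest of the pathway was mixed between the states of the library labelled f/f, where 37.7% of all genes passed the limit. Of 3 other BH3-only members with at least 100 UMIs, 1 was higher in the Myog state (Bnip3, 10.1 to 29.4 CPM) and none lower, with Bbc3 (Puma) at 20.4 and 16.2 CPM. Of 3 other effector-type and uncertain members 1 was lower, Bok, from 16.5 to 5.09 CPM, and Bcl2l12 had 18.1 and 13.6 CPM.

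Of 4 inhibitors of apoptosis 1 was higher, Birc2 (10.5 to 23.1 CPM), and 1 lower, Birc5 (245 to 128 CPM). Of 2 death receptor genes 1 was lower, Tnfrsf1a (16.02 to 8.20 CPM), with Cflar at 27.0 and 33.3 CPM. Of 9 genes of p53 and its targets 3 were higher and 3 lower, led by Cdkn1a (43.7 to 578 CPM), which is known to rise as muscle cells leave the cycle, and Trp53inp1 (2.13 to 11.6 CPM). Of 11 stress genes 1 was higher (Hspb1, 218 to 421 CPM) and 3 lower (Ier2, 224 to 111 CPM). Among the other classes' markers, the Mesen-like list had 134 CPM in the Pax7 and 70.3 CPM in the Myog state and the Peri-like (pericyte) list 73.0 and 17.1 CPM, while the Osteo-like list had 27.2 and 92.1 CPM. Their part in the members' values was not tested.

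Cycling cells were compared with the others, as cells with at least 3 of 6 mitosis genes. In SKM-like cells, 1 of 8 members passed the limit, beside 19.8% of all genes: Bcl2 had 12.1 CPM in 1206 cycling and 7.82 CPM in 1140 other cells (log2 0.63, 0.31 to 0.96). The median gene had a ratio of 0.12, and relative to it none of the members passed. The median depth was 17112 UMIs in the cycling and 12386 UMIs in the other cells of the library labelled f/f. In Chon-like cells none of 8 members passed, beside 14.1% of all genes, and their ratios lay between -0.15 (Bad) and 0.31 (Pmaip1). Birc5 had 303 against 58.2 CPM in SKM-like and 308 against 21.55 CPM in Chon-like cells.

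Between the libraries, few members differed by 1.5-fold. Over all kept cells 1 of 9 passed the limit, beside 21.1% of 15806 genes, and the median ratio was 0.23 for the members and 0.03 for all genes. That member was Bcl2l11, with a log2 ratio of 0.61 (0.56 to 0.66). The libraries hold different shares of the classes in which Bcl2l11 is high: Endo-like cells were 3.13% of the library labelled f/f and 9.35% of the library labelled f/w, Lymph-like cells 0.144% and 1.58%, and Mast-like cells 0.264% and 2.77%. With the class levels of the library labelled f/f and the class shares of UMIs of the library labelled f/w, Bcl2l11 came to 47.6 CPM, between the 35.5 and 54.3 CPM counted. The level counted in the library labelled f/w was above this by a log2 ratio of 0.19. Over 10 classes with at least 50 cells in each library, all weighted alike, its mean ratio was -0.03. It was higher in the library labelled f/w in 4 of these classes. Its ratio was 0.45 in Mesen-like, 0.21 in Chon-like and -0.43 in Macro-like cells. The part of the class shares in the Bcl2l11 ratio was not tested.

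Mcl1 was higher in the library labelled f/w in 10 of 10 classes, and so were 6.61% of the 2162 genes tested in all 10. Its ratios ran from 0.08 in SKM-like to 0.38 in Mesen-like cells with a mean of 0.24, inside the limit, and 6.94% of these genes had a mean as high. In Mesen-like cells it had 417 CPM (411 to 423) and 543 CPM (534 to 552). In SKM-like cells the interval of its ratio, -0.08 to 0.24, includes 0. The summed level of the stress genes was 10163 and 14344 CPM in Mesen-like cells of the libraries labelled f/f and f/w. It was 4687 and 6182 CPM in Chon-like cells and 2005 and 3769 CPM in SKM-like cells. In Endo-like cells, where the Mcl1 ratio was 0.34, it was 6705 and 6518 CPM. The part of the stress genes in the Mcl1 level was not tested.

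By the mean of class ratios none of the members passed, and Bid had no ratio. Beside them, 6.32% of the 13692 genes tested in any class passed. The other members had ratios in 5 to 10 classes, so this share is not a like background. Bax was higher in the library labelled f/w in 9 of 10 classes, by a mean of 0.10. Pmaip1 had a mean of 0.28 over 5 classes and Bcl2 of -0.21 over 7.

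**Figure D4:**
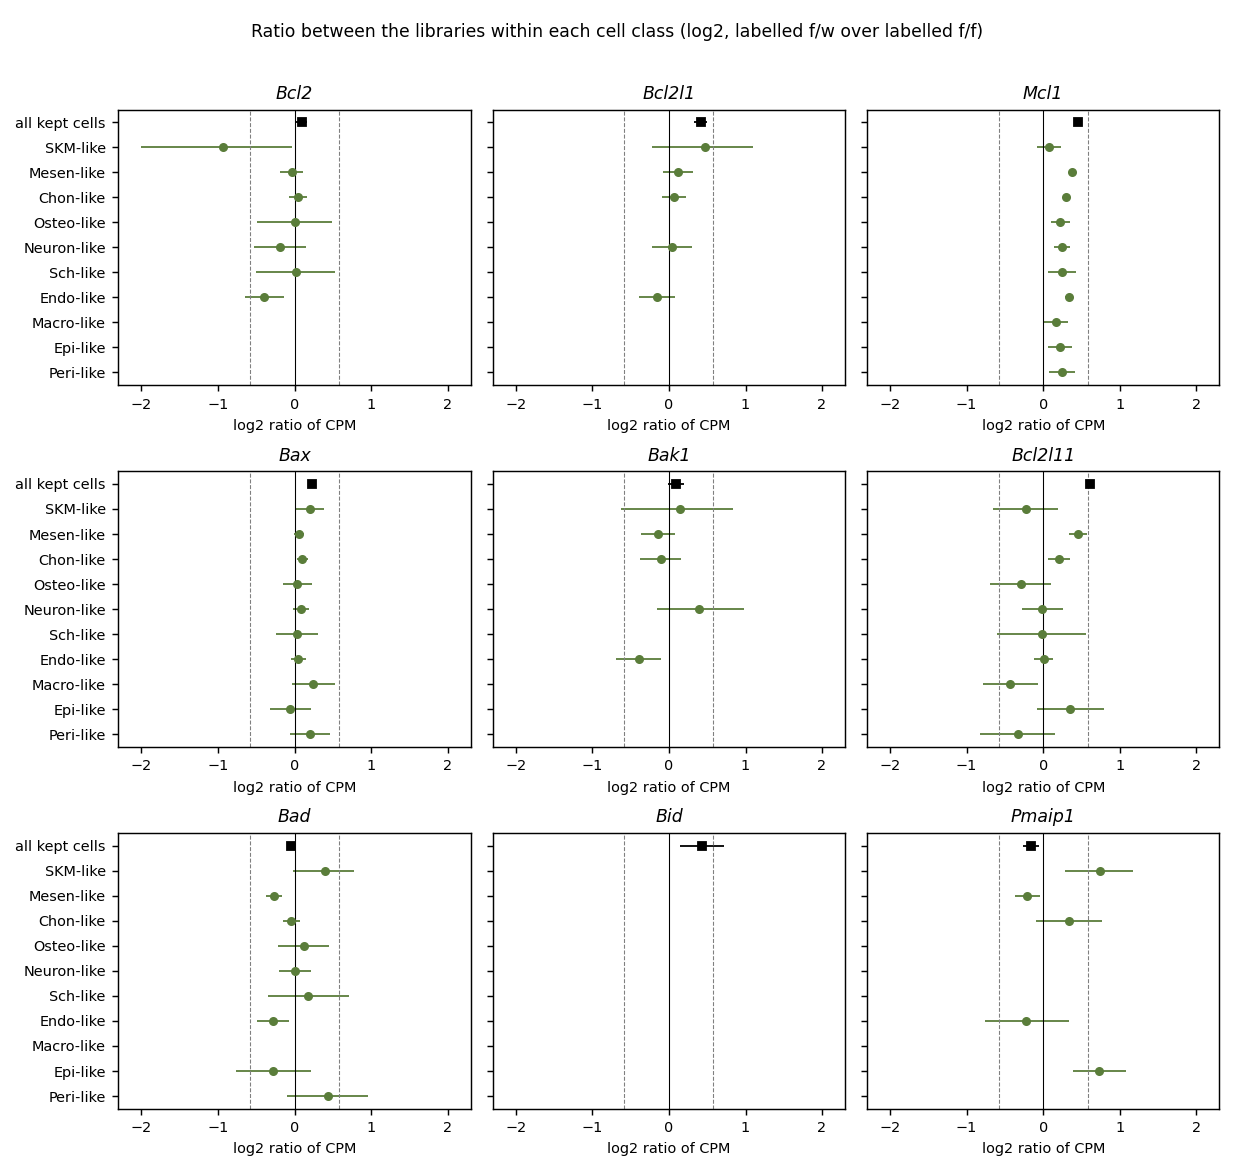
Log2 ratio of CPM, library labelled f/w over library labelled f/f, over all kept cells (black squares) and within each class (green points) with at least 50 cells in each library, for members with at least 100 UMIs over both, with exact 95% intervals. Dashed lines mark 1.5-fold. The Mcl1 points all lie right of 0, and the Pmaip1 points of SKM-like and Epi-like cells lie past the right dashed line.

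In SKM-like cells, 2 of 8 members passed the limit, beside 17.2% of 10101 genes. Bcl2 was lower in the library labelled f/w (10 UMIs, 5.57 CPM, 2.67 to 10.2) than in the library labelled f/f (368 UMIs, 10.6 CPM, 9.56 to 11.8), a log2 ratio of -0.93 (-2.003 to -0.04). Pmaip1 was higher, with 26.7 CPM (19.7 to 35.5) against 15.99 CPM (14.7 to 17.4), a log2 ratio of 0.74 (0.29 to 1.17). The Myog state, where Pmaip1 was high, made up 33.2% (31.2 to 35.2) of the SKM-like cells of the library labelled f/f. In the library labelled f/w it made up 42.7% (33.3 to 52.5), and the intervals overlap. Within the Myog state Pmaip1 had 24.3 and 46.7 CPM (log2 0.94, 0.39 to 1.45), from 258 and 35 UMIs. A Pmaip1 UMI was found in 23.7% of these 742 and 31.9% of these 47 cells, and the interval takes UMIs as independent. Within the Pax7 state Pmaip1 had 9.31 and 9.13 CPM, from 118 and 5 UMIs. In the Pax7 state, 2 of 8 members passed the limit, beside 21.6% of all genes: Bcl2l1 was higher in the library labelled f/w, with 10.4 and 23.7 CPM from 132 and 13 UMIs (log2 1.19, 0.24 to 2.01), and Bcl2 had 190 and 4 UMIs (log2 -1.04, -2.93 to 0.34). In the Myog state, 2 of 5 passed, beside 18.2% of all genes: Pmaip1, and Bcl2l11 with 27.4 and 17.3 CPM from 291 and 13 UMIs (log2 -0.66, -1.59 to 0.13). The intervals of Bcl2 and Bcl2l11 include 0. With every cell thinned to 2000 UMIs, which leaves few Pmaip1 UMIs, the Pmaip1 ratio over SKM-like cells turned to -1.70.

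The members with no call in SKM-like cells had ratios between -0.22 (Bcl2l11) and 0.48 (Bcl2l1, -0.22 to 1.10), and the interval of Bax (0.02 to 0.38) was the only other one that excluded 0. The intervals of Bcl2l1, Bak1, Bad and Bcl2l11 (-0.66 to 0.19) each include 0 and 1.5-fold, so with these 110 cells neither is excluded. The mast cell markers summed to 3.41 CPM in the SKM-like cells of the library labelled f/f and 31.2 CPM in those of the library labelled f/w, the epidermal markers to 8.22 and 23.95 CPM and the mesenchymal markers to 110 and 69.6 CPM, and their part in these ratios was not tested.

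Of the pathway lists in SKM-like cells, the stress genes had the most past the limit. In the library labelled f/w, 7 of 11 were higher and none lower, beside 414 higher and 1324 lower of 10101 genes. Leading were Hspa1a (29.3 and 207 CPM) and Hspa1b (19.0 and 86.3 CPM). Of the apoptosome genes and caspases, Casp9 had 3.90 and 1.67 CPM. Of 4 other BH3-only members 1 was lower, Bmf (2.94 and 0.56 CPM), while Bnip3 had 17.3 and 24.5 CPM. Of 4 inhibitors of apoptosis 1 was lower, Birc2 (15.2 and 9.47 CPM), with Xiap at 29.95 and 24.5 CPM. The intervals of the Casp9, Bmf and Birc2 ratios all include 0, with 1 UMI of Bmf in the library labelled f/w. None of 9 genes of p53 and its targets passed the limit, and their summed level was 489 and 533 CPM, with Trp53inp1 at 6.12 and 7.80 CPM and Zmat3 at 6.98 and 5.57 CPM. None of the 2 death receptor genes, 3 other effector-type and uncertain members and 1 other anti-apoptotic member with enough UMIs passed.

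None of the members passed the limit in Mesen-like cells (8 tested, beside 7.82% of all genes), Chon-like cells (8 tested, 6.30%), Neuron-like cells (7 tested, 5.16%) or Endo-like cells (8 tested, 5.98%). In Mesen-like cells, the largest class, Bcl2l11 had 31.7 CPM in the library labelled f/f and 43.4 CPM in the library labelled f/w (log2 0.45, 0.34 to 0.57), and Bad had 57.3 and 47.6 CPM (log2 -0.27, -0.37 to -0.17). In Endo-like cells Bcl2, Bak1 and Bad were each lower in the library labelled f/w, with ratios of -0.39, -0.40 and -0.29 and intervals below 0. The Bak1 ratio was -0.06 (-0.50 to 0.41) in lymphatic and -0.54 (-0.95 to -0.13) in other Endo-like cells, while Bcl2 and Bad had negative ratios in both. Bcl2l1 had a ratio of -0.16 (-0.40 to 0.08) over the class. It was -0.33 (-0.60 to -0.05) in lymphatic and -0.35 (-0.85 to 0.16) in other Endo-like cells. Lymphatic cells were 52.8% and 63.9% of the class in the libraries labelled f/f and f/w. In Chon-like cells the ratios other than that of Mcl1 lay between -0.11 and 0.33. In Epi-like cells Pmaip1 had 51.2 CPM (41.3 to 62.7) and 84.9 CPM (75.8 to 94.8), a log2 ratio of 0.73 (0.39 to 1.08), and it was the only 1 of 5 members tested to pass the limit, beside 11.8% of all genes. In the same cells the mast cell markers summed to 6.60 and 69.8 CPM, the bone markers to 520 and 129 CPM and the muscle markers to 67.1 and 5.14 CPM, and their part in this ratio was not tested.

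Over all kept cells the genes of the other pathway lists that passed the limit were all higher in the library labelled f/w. Of all genes, 21.1% passed, 2368 higher and 967 lower, and nothing particular to the pathway is read from these calls. Of 6 other BH3-only members 3 were higher in the library labelled f/w. Leading were the Endo-like gene Bik (2.22 and 8.004 CPM) and the Neuron-like gene Hrk (1.12 and 3.26 CPM). Both are of classes with a larger share of the library labelled f/w, and the part of these shares was not tested. Within Endo-like cells Bik had 32.7 and 46.3 CPM (log2 0.50, 0.28 to 0.73), inside the limit. In Neuron-like cells Hrk had 12.3 and 23.9 CPM (log2 0.96, 0.58 to 1.35) and Bbc3 46.4 and 72.8 CPM (log2 0.65, 0.45 to 0.85). They were the 2 of 4 other BH3-only members tested that passed the limit there, beside 5.16% of all genes. Of 10 apoptosome genes and caspases and of 5 inhibitors of apoptosis none passed over all cells, with ratios down to -0.37 for Casp9 and -0.45 for Birc5. Of 10 genes of p53 and its targets 1 passed, Trp53inp1 (6.78 and 10.2 CPM). Of 4 other anti-apoptotic members 3 passed, all of them the near-identical Bcl2a1 copies. Of 4 other effector-type and uncertain members 1 passed (Bcl2l14, 0.27 and 0.65 CPM). Of 6 death receptor genes 1 passed (Tnfrsf10b, 4.62 and 7.57 CPM), and of 11 stress genes 3, led by Hspa1a (70.4 and 134 CPM).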

How the data were processed

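Cells of E14 embryos sorted on tdT had been sequenced as 2 libraries, 1 per genotype, with 10x Genomics 3′ v3.1 chemistry. The authors deposited raw counts of UMIs for each gene in each barcode, which they made with Cell Ranger 5.0.0 (matrix header and methods) on mm10 after down-sampling reads to aggregate both libraries. The submitters' processing notes also name Cell Ranger 3.1.0, STAR and Seurat 3.1.1. Down-sampling evens depth but removes UMIs of rare genes such as Bid.

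Groups follow the sample titles, which other values contradict, as stated above. Barcode suffixes were paired with libraries through the authors' cell numbers. Barcodes passed if log10 UMIs and log10 genes lay less than 2 SD from their library's mean and at most 10% of UMIs were mitochondrial. A cell took a class when at least 3 of 8 markers had a UMI and no other class had as many, and 861 tied cells stayed unassigned. No doublet caller was run, and cells with 3 markers of another class were left out as an alternative. UMIs were summed per library and class. CPM have exact Poisson intervals, shares exact Clopper-Pearson intervals and ratios the exact interval of the binomial split, all at 95% and for counting error only, and the intervals were tested on simulated data. Of the gene IDs, 32235 were found in GENCODE M21. Promoters came from RefSeq for 8 of the 9 members.

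The members, gene lists and limits were chosen with earlier results of these data known. Named are all members, Srsf2, the 2 genes most like each member, and, in the comparisons where a list is described, up to 2 genes of the list with the largest ratio. Some genes that this rule names are not reported here. Genes named for a high class level were chosen after their values were seen. Alternatives changed the cell filters, class limits, denominator, weight of cells, depth and minimum of UMIs. Python 3.11.15, NumPy 2.4.6, SciPy 1.17.1, pandas 2.3.3 and matplotlib 3.10.9 were used.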

Additional observations from a re-analysis of the deposited data

Results flagged for a closer look

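For 2 members the ratio between the libraries (log2, labelled f/w over labelled f/f) went opposite ways in 2 classes, each with an interval that excludes 0. The difference between the classes was not tested, since there is 1 library per genotype. Bcl2l11 had a ratio of 0.45 (0.34 to 0.57) in Mesen-like cells and of -0.43 (-0.79 to -0.07) in Macro-like cells. Pmaip1 had a ratio of 0.74 (0.29 to 1.17) in SKM-like cells and of -0.21 (-0.37 to -0.04) in Mesen-like cells.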

How the results depend on the processing

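No paired analysis was possible because there is 1 library per genotype, and for the same reason no replicate could be left out. Of 114 counts of members under an alternative, 98 stayed within 1.5 times the count reported, and of 724 ratios of members 663 stayed inside their interval and 1 turned. Over all kept cells, the count of 1 member went to 0 with the mean over cells of UMIs per 10000 and with cells thinned to 2000 UMIs (the Bcl2l11 ratio was then 0.50 and 0.49). In SKM-like cells the count of 2 went to 1 at a minimum of 500 UMIs, and thinning turned the Pmaip1 ratio to -1.70. Thinning also gave 1 member past the limit in Mesen-like and 1 in Endo-like cells, Pmaip1 in both (-0.60 and -1.49). Between the Myog and Pax7 states the count of 6 went to 3 without haemoglobin, mitochondrial and ribosomal protein genes in the total, to 2 at a minimum of 500 UMIs, where fewer members are tested, and to 3 with ratios centred on the median gene. Between cycling and other cells the count of 1 went to 0 with 2 of 8 markers, with the total without those genes, with the mean over cells, at a minimum of 500 UMIs and with centred ratios, to 2 with markers of 2 or more UMIs and with no minimum of UMIs, and to 3 with thinned cells. The cause was not tested. Thinning left 21509 cells and few UMIs of the rarer members. Centring and leaving out the 5031 cells with 3 markers of another class were chosen after seeing the data.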
